A study of Rattus norvegicus with 6 samples.

Results

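ADAMTS proteases and thrombospondins are secreted proteins of the extracellular matrix. The 8 genes described here, Adamts1, Adamts4, Adamts5, Adamts9, Thbs1, Thbs2, Thbs3 and Thbs4, are 8 of the 32883 gene rows in the table, and each symbol matched 1 row. They were chosen by family with the difference between cLTP and DMSO cultures already known, so that difference is given below as a description and supports no claim about these genes. All 8 were among the 17315 genes that were tested, which had a normalised read count averaging 1 or more over the libraries. The libraries came from primary hippocampal cultures of Wistar rat pups at postnatal day 0, labelled as neuronal cultures. On day 13 to 15 in vitro, 3 cultures received forskolin (50 µM, an activator of adenylyl cyclase), rolipram (50 nM, an inhibitor of cyclic AMP phosphodiesterases) and picrotoxin (200 µM, a blocker of GABA-A receptors), a mixture used as chemical long-term potentiation (cLTP). The other 3 cultures received the solvent DMSO, and no genetic change is named for either group. How long after treatment the cells were harvested is not stated in the labels.

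ADAMTS enzymes are zinc metalloproteases that carry thrombospondin type 1 repeats, short modules that bind the matrix. Adamts1, Adamts4, Adamts5 and Adamts9 belong to the group that cuts the chondroitin sulphate proteoglycans aggrecan, brevican and versican, which surround neurons and fill the spaces of brain matrix. Thrombospondins are large glycoproteins that bridge cells and matrix. Thbs1 and Thbs2 encode the members with type 1 repeats and are known in the brain as astrocyte signals that promote synapse formation, whereas Thbs3 and Thbs4 encode members that lack these repeats.

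Each library held between 10668973 and 12776185 recovered reads. Summed neuronal markers (10 genes) lay between 59083 and 74214 in DMSO and between 64356 and 84664 in cLTP libraries, and 8 astrocyte markers lay between 122478 and 191383 and between 141801 and 198876. The 8 markers of the oligodendrocyte lineage summed to 2455 to 3621 in DMSO and 2802 to 3842 in cLTP. Markers of vessels were low: 7 endothelial genes summed to 74.6 to 77.1 and 72.2 to 76.7. Cldn5 and Cdh5 were at 0 to 2.07 in each library, while Kdr was at 25.9 to 44.3 and Vwf at 19.7 to 34.9. Rgs5 and Acta2, of the list of mural cells and fibroblasts, were at 0 to 5.71 in each library. With them, the 10 genes of that list summed to 1761 to 2131 in DMSO and 1611 to 1807 in cLTP. Among these 10 genes Pdgfrb, a receptor of mural cells, fell to 0.284-fold (limma adjusted p = 0.00106). Cnn1, a smooth muscle protein, rose from 4.91 to 21.7 (limma adjusted p = 0.00806). Nefl, a neurofilament gene among the neuronal markers, rose 1.77-fold (0.0305). Culture 3 stood apart in both groups: its 8 microglial markers summed to 766 and 807, against 48.5 to 62.8 in the other 4 libraries. In those 4, Aif1 and Cx3cr1 were at 0, while Cd68 was at 42.1 to 49.7 and made up most of the sum. Tmem119 was not highest in DMSO 3 (10.5, 5.27 and 7.88 in DMSO 1, 2 and 3). The astrocyte markers of culture 3 were lower than in cultures 1 and 2. In bulk RNA, fewer cells of a type and less RNA per cell cannot be told apart.

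Promoter windows from RefSeq (build GRCr8, 250 bases before to 50 bases after the annotated start) matched 6 of the 8 genes by symbol. The windows of the 3 genes with the largest differences are shown with that of Thbs3, whose level was almost equal in both groups, so that their sequences can be compared. They lie at chr11:38427335-38427634 (Adamts1, minus strand), chr3:125510000-125510299 (Thbs1, plus strand), chr4:127019827-127020126 (Adamts9, minus strand) and chr2:176919349-176919648 (Thbs3, plus strand). Capitals mark each match to the motifs described next, on either strand.
Adamts1: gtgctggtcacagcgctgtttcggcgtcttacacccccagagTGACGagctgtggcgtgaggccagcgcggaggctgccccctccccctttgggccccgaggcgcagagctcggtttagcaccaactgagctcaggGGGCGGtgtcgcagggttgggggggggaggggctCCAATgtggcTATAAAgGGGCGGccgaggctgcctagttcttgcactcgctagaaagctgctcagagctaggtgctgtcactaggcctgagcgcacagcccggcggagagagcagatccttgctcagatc
Thbs1: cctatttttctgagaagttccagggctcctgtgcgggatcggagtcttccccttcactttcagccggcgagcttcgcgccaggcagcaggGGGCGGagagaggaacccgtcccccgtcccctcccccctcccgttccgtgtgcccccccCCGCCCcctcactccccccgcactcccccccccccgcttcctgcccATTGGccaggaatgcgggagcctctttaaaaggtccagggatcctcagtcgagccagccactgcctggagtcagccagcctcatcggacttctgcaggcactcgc
Adamts9: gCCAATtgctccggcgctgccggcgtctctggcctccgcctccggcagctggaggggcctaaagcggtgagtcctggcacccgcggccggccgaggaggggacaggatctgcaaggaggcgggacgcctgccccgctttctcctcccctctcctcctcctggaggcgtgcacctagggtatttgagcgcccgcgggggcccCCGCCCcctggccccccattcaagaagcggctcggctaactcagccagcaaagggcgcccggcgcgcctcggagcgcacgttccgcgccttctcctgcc
Thbs3: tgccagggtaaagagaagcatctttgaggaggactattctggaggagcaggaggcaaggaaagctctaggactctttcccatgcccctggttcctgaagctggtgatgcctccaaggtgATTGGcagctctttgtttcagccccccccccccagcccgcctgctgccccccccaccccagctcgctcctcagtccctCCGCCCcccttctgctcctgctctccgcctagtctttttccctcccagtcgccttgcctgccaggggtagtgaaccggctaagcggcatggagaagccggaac

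The search covered both strands. The cyclic AMP response element in full (TGACGTCA), the AP-1 site (TGANTCA) and the CArG box of serum response factor matched none of the 6 windows, and were found in 1.83%, 7.33% and 1.64% of all 33469 windows of 300 bases. The half-site TGACG, which is part of the full element, matched Adamts1 alone, with its first base at position -208 from the start, and was found in 21.2% of all windows. Adamts1 was also the only member with TATAAA, at position -70, a match held by 14.2% of all windows. A CCAAT match was present in 4 of the 6 windows (37.5% of all windows), and GGGCGG in 5 of the 6 (33.1%). The 5 windows with GGGCGG held 61.7% to 72.3% G and C, against a median of 51.7% over all windows. The share of 33.1% was not adjusted for this. Adamts1, Thbs1, Adamts9 and Thbs3 each held both the CCAAT and the GGGCGG match, and Thbs4 held GGGCGG. Whether these motifs bear on the levels of the genes was not tested. No match in these windows says only that the letters are not there, and nothing is drawn from it about the factors.

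Within the ADAMTS proteases, Adamts1 and Adamts9 were higher in cLTP cultures, by 17.7-fold and 3.5-fold, Adamts4 was 1.61-fold higher and Adamts5 overlapped between the groups. Of the 8 genes, 3 (Adamts1, Adamts9 and Thbs1) passed a limma adjusted p of 0.05, each of them higher, and 0 were lower. Over all tested genes 9.02% passed, 5.71% higher and 3.31% lower. With the culture number as a block 4 of the 8 passed, against 23.5% of all tested genes (12.9% higher and 10.7% lower), and the counts with the block below stand beside those shares. All cLTP libraries lay above all DMSO libraries for Adamts1, Adamts4, Adamts9 and Thbs1, a pattern seen in 15% of tested genes. Because the choice of genes used this contrast, nothing is read from these counts. The values below are normalised read counts that are not divided by gene length, so levels are compared between libraries and not between genes. Each fold was computed from log2(value + 1), which understates the change of low genes.

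**Figure D1:**
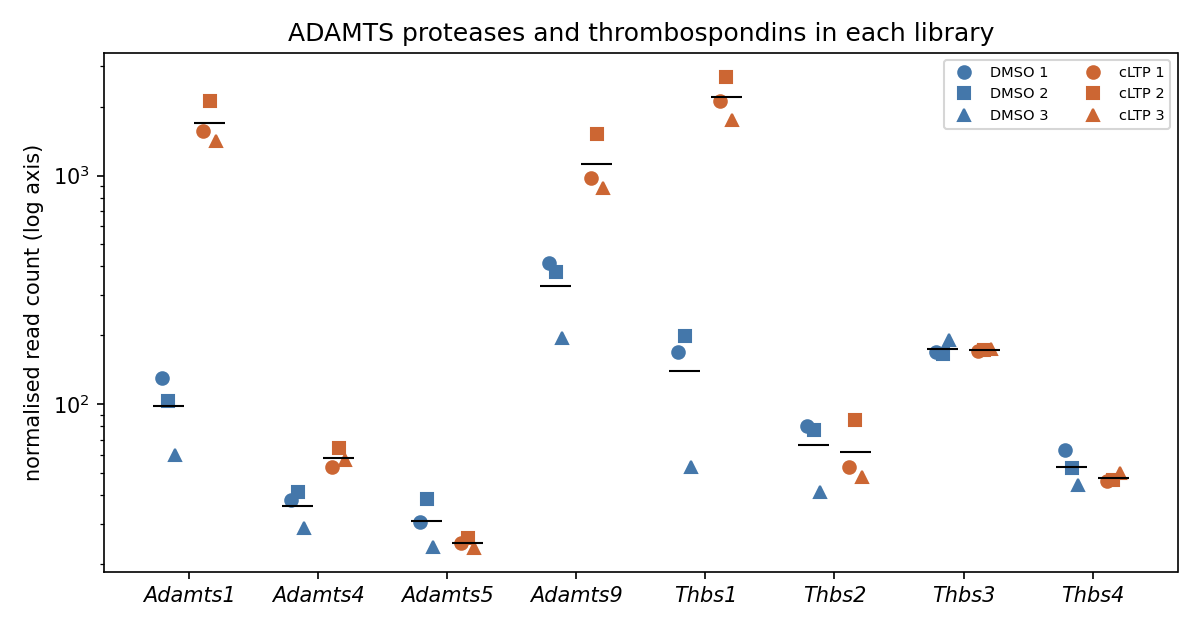
Normalised read count (log axis) of the 8 genes in each library; symbols mark the culture number, colours the group and black lines the group mean (n = 3). Adamts1 and Thbs1 reach 1410.1 to 2709 in cLTP libraries, Adamts9 is higher in each cLTP library, and the remaining thrombospondins overlap between groups.

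Adamts1 (ENSRNOG00000001607), a protease first known from inflammation that cuts versican and aggrecan, was at 130.3, 103 and 60.1 in DMSO 1, 2 and 3. In cLTP 1, 2 and 3 it was at 1561, 2108 and 1410.1. Each cLTP library lay far above each DMSO library. The group means were 97.7 ± 35.4 and 1693 ± 367 (SD, n = 3 each), a 17.7-fold difference with a 95% interval from 11.5 to 27.4. By size of fold the gene ranked 20 among the 17315 tested. Within same-numbered cultures the ratio was 12.0, 20.5 and 23.5.

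Adamts5 (ENSRNOG00000057794), with Adamts4 one of the best-known aggrecan-cutting enzymes, is the neighbouring protein-coding gene of Adamts1 on chromosome 11 in the RefSeq annotation of GRCr8. It was at 30.4, 38.6 and 23.6 in DMSO and 24.8, 25.9 and 23.4 in cLTP libraries, from 22 to 44 reads per library. The groups overlapped, and cLTP libraries were within the range of the controls except for cLTP 3, which was slightly below the lowest control. The fold was 0.82, with an interval from 0.569 to 1.18. The interval of Adamts1 ran from 11.5 to 27.4, and whether the neighbouring genes differ was not tested.

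Adamts9 (ENSRNOG00000023257), which cuts versican and aggrecan and is widely expressed, was at 414, 377 and 194 in DMSO and 971, 1524 and 885 in cLTP libraries. Each cLTP library lay above each DMSO library, with cLTP 2 highest and DMSO 3 lowest. The means were 328 ± 118 and 1126 ± 347, a 3.5-fold difference (95% interval 2.1 to 5.83). Its ratio within cultures 1, 2 and 3 was 2.35, 4.05 and 4.56.

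Adamts4 (ENSRNOG00000003538), which cuts brevican and aggrecan, was at 38.1, 41.3 and 28.6 in DMSO and 53.0, 64.3 and 57.0 in cLTP libraries, from 29 to 62 reads each. The groups did not overlap, although DMSO 2 and cLTP 1 held 47 reads each and differed only after scaling for depth. The means of 36.0 ± 6.61 and 58.1 ± 5.72 gave a 1.61-fold difference (95% interval 1.19 to 2.19). The gene did not pass in limma (adjusted p = 0.0647), edgeR (0.0564) or DESeq2 (0.127). With 1 library left out it did not pass either (limma adjusted p = 0.0867 to 0.192). It passed only with the culture number as a block (limma adjusted p = 0.00992).

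Read shares show the same data within the family. Adamts1 supplied 21.3%, 18.4% and 19.6% of the reads of the 4 ADAMTS genes in DMSO 1, 2 and 3. Its share in the cLTP libraries of the same numbers was 59.8%, 56.6% and 59.4%. The exact 95% binomial intervals, which cover counting error only, ran from 15.3% to 24.6% over the controls and from 55.0% to 61.8% over the cLTP libraries. Adamts9 went the other way in share, from 67.5%, 67.3% and 63.3% to 37.2%, 40.9% and 37.3%, while its own level was higher. Culture 3, in which the total of the 4 genes was lowest among controls (311 reads, against 644 and 637), had a similar mix to cultures 1 and 2. Shares are of reads, which longer transcripts gather more of, and are not shares of transcripts.

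**Figure D2:**
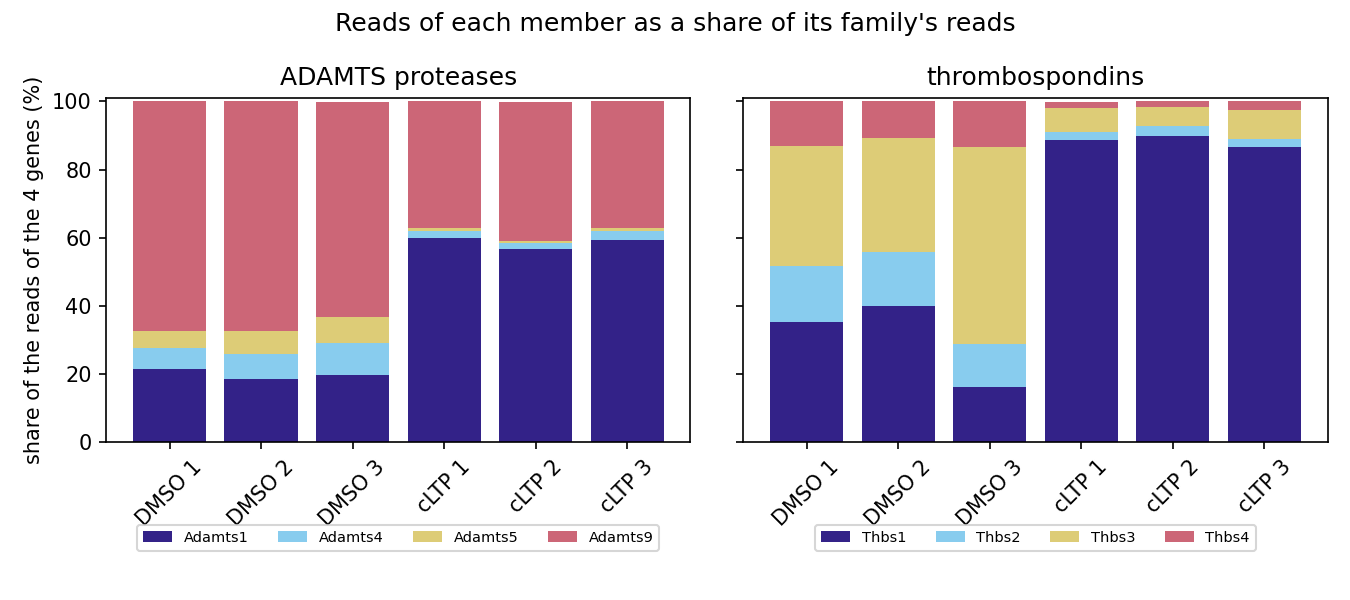
Share of reads (percent, linear axis from 0) that each gene supplied to the total of the 4 ADAMTS proteases (left) or the 4 thrombospondins (right), 1 bar per library. Adamts1 goes from 18.4 to 21.3% in DMSO to 56.6 to 59.8% in cLTP libraries, and Thbs1 from 16.2 to 40.0% to 86.6 to 89.9%.

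Among the thrombospondins the difference lay in Thbs1, whereas Thbs2, Thbs3 and Thbs4 overlapped between the groups. Thbs1 (ENSRNOG00000045829), which also activates latent TGF-beta, was at 169, 198 and 53.2 in DMSO and 2123, 2709 and 1758 in cLTP libraries. DMSO 3 was the lowest of the controls by a wide margin, and each cLTP library lay far above all of them. The means were 140.0 ± 76.5 and 2197 ± 479.8, a 17.7-fold difference (95% interval 7.75 to 40.3), and rank 21 by size of fold. The ratio within cultures was 12.5, 13.7 and 33.1. Without DMSO 3 the fold was 11.8.

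Thbs2 (ENSRNOG00000010529), the closest relative of Thbs1, was at 79.9, 77.3 and 41.4 in DMSO and 53.0, 85.0 and 47.8 in cLTP libraries. Its libraries interleaved, with culture 3 low in both groups. The fold was 0.945, with an interval from 0.585 to 1.53, at 42 to 88 reads per library. On the log2 scale the difference was -0.08 with an interval from -0.77 to 0.61, or from -0.45 to 0.29 with the culture number as a block.

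Thbs3 (ENSRNOG00000059903), a thrombospondin best known from skeletal tissue, was almost level, at 169, 166 and 190.0 in DMSO and 170.2, 172 and 175 in cLTP libraries. The cLTP values lay inside the range of the controls. The fold was 0.986 (95% interval 0.837 to 1.16).

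Thbs4 (ENSRNOG00000012471), which is known from tendon, muscle and injured nervous tissue, was at 62.8, 52.7 and 44.3 in DMSO and 46.2, 46.6 and 49.9 in cLTP libraries. The 3 cLTP values again lay inside the range of the controls. The fold was 0.903 (95% interval 0.682 to 1.2).

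In reads, Thbs1 supplied 35.2%, 40.0% and 16.2% of the reads of the 4 thrombospondins in DMSO 1, 2 and 3 and 88.7%, 89.9% and 86.6% in cLTP. DMSO 3 had an exact interval from 12.4% to 20.6%, below those of DMSO 1 and 2 (from 31.0% to 44.2%). The cLTP libraries were close to each other in this share, including cLTP 3.

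Culture 3 was low for several of the 8 genes. In DMSO, culture 3 minus the mean of cultures 1 and 2 was -1.76 for Thbs1, -1.02 for Adamts9, -0.93 for Adamts1 and -0.91 for Thbs2 on the log2 scale, against a median of 0.01 over all tested genes. In cLTP the same differences were -0.45, -0.46, -0.36 and -0.48. Thbs3 was at 0.18 and 0.03. The summed astrocyte markers were lower in culture 3 as well (-0.63 in DMSO and -0.45 in cLTP). So were the sums of the oligodendrocyte lineage (-0.55 and -0.44) and of mural cells and fibroblasts (-0.24 and -0.16). The microglial sum was higher (3.77 and 3.97) and the neuronal sum was 0.28 and 0.33 higher. Sums follow their highest genes, such as Olig1 (2229, 2148 and 1445 in DMSO 1, 2 and 3). Some genes of the oligodendrocyte and mural lists were higher in culture 3, among them Mbp (66.6, 87.8 and 106) and Dcn (191, 220.4 and 346). The part of these cell types in the levels of the 8 genes was not tested. The folds without culture 3 of both groups were on the log2 scale 3.96 for Adamts1, 1.62 for Adamts9 and 3.71 for Thbs1, and these 3 genes still passed.

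The rest of the ADAMTS family was measured in the same fit. Of 21 further ADAMTS and ADAMTS-like genes, 20 were in the table and 19 were tested, and 0 passed in limma, in edgeR and in DESeq2, in either direction, beside 9.02% of all genes in limma. Whether these 19 differ from the 8 genes above was not tested. None of the 19 had an unadjusted limma p under 0.05 either, against 3644 of all 17315 tested genes, and 0 passed with the block. Their folds lay between 0.819 and 1.5, with a median log2 fold change of -0.03 beside 0.00 for all genes tested. Adamts6 had the lowest p of them, with 30.4, 32.5 and 18.7 in DMSO and 32.7, 52.9 and 37.6 in cLTP libraries (1.5-fold, limma adjusted p = 0.268). Adamts3, known for processing procollagen and reelin, was at 223 ± 43.3 and 225 ± 27.9.

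**Figure D3:**
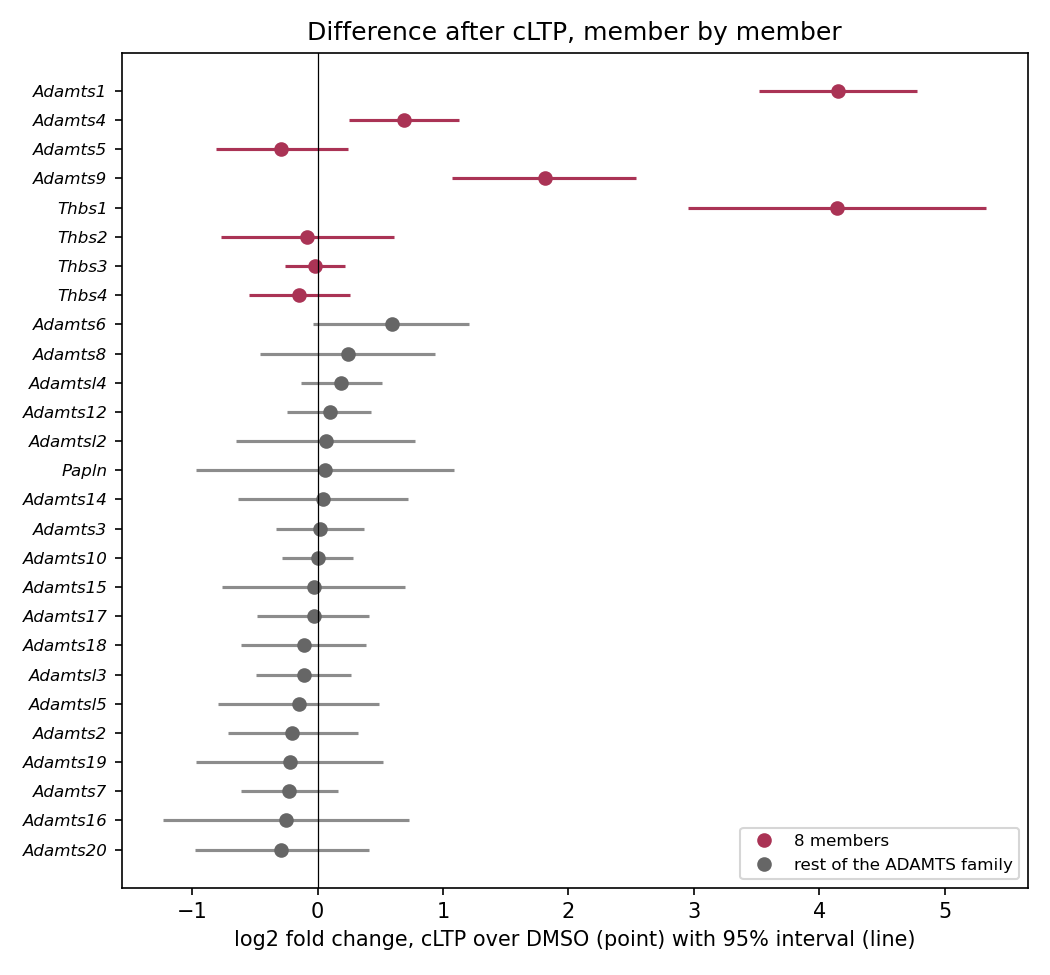
Log2 fold change of cLTP over DMSO (points) with its 95% interval (lines) for the 8 genes (red) and the 19 tested genes of the rest of the ADAMTS family (grey). Adamts1 and Thbs1 lie near 4, Adamts9 at 1.81, and the grey points lie between -0.29 and 0.59.

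Transcripts of the matrix proteins cut by these proteases were looked at next, while the proteins and their cleavage were not measured. Of 17 genes for proteoglycan substrates, link proteins, other matrix partners and hyaluronan synthases, 2 rose and 0 fell. Over all tested genes 5.71% rose and 3.31% fell. The median log2 fold change of the 17 genes was 0.05. The pair that rose are not substrates: Has1 and Has2 encode enzymes that make hyaluronan, the polymer to which the proteoglycans bind. Has1 was at 25.7, 19.3 and 42.3 in DMSO and 93.6, 90.2 and 109.9 in cLTP libraries (3.44-fold, limma adjusted p = 0.00343). Has2 was at 25.7, 63.2 and 22.6 and at 144, 165 and 129 (4.26-fold, limma adjusted p = 0.00744). For both, each cLTP library lay above each DMSO library. Bcan, the proteoglycan brevican, was at 7238 ± 1467 and 7693 ± 929.7 (limma adjusted p = 0.796), and Vcan, versican, at 917 ± 38.8 and 809 ± 151 (0.438). Under the culture block 3 passed as higher and 1 as lower, the latter being Acan, aggrecan (168 ± 52.5 and 127 ± 44.2, limma adjusted p = 0.519, or 0.0326 with the block), and the third higher gene being Hapln1, a link protein (1216 ± 197 and 1367 ± 188, 0.571, or 0.0316 with the block).

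Inhibitors, cofactors, activating proteases and the clearance receptor of ADAMTS enzymes were a list of 11, of which 0 passed in limma, edgeR and DESeq2. In limma 9.02% of all tested genes passed. Of the 11, 2 had an unadjusted limma p under 0.05, against 3644 of all 17315 tested genes. The median log2 fold change of the list was 0.11. Under the culture block 4 passed as higher and 0 as lower. Timp3, the main tissue inhibitor of ADAMTS4 and ADAMTS5, was at 1385, 1447 and 979 in DMSO and 1647, 1945 and 1397 in cLTP libraries (1.32-fold, limma adjusted p = 0.225, or 4.4e-05 with the block). Within each numbered culture its cLTP value was higher, while the groups overlapped, with culture 3 low in both. Timp1, a related inhibitor, had the lowest p of the list (661 ± 197 and 953 ± 188, adjusted p = 0.207, or 0.00039 with the block). The remaining pair with a call under the block were Timp2 (1.09-fold, 0.048) and Sdc4, a syndecan that also binds thrombospondin (1.29-fold, 0.000314). Lrp1, the receptor that takes up ADAMTS proteases and thrombospondins, was at 14875 ± 3014 and 13055 ± 2299 (adjusted p = 0.621).

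Thrombospondin receptors and Comp, the fifth thrombospondin, made a list of 23, of which 22 were tested. Of these 0 rose and 1 fell, beside 5.71% and 3.31% of all tested genes, with a median log2 fold change of -0.03. Itga5, a subunit of the fibronectin receptor, fell from 124, 127 and 87.6 to 64.3, 76.7 and 64.1 (0.615-fold, limma adjusted p = 0.0405). It no longer passed when any 1 library other than DMSO 3 was left out (limma adjusted p = 0.062 to 0.158). The receptors tied to the synaptic role of thrombospondins differed by less: Cacna2d1, the calcium channel subunit that binds gabapentin, was at 1341 ± 268 and 1275 ± 154 (limma adjusted p = 0.871). Nlgn1, neuroligin, was at 1395 ± 58.4 and 1288 ± 76.0 (adjusted p = 0.456), and Cd47, a receptor on many cell types, at 1316 ± 122 and 1220.2 ± 180.3 (0.649). Comp was at 1.76 to 5.09 in each library, too few reads for a comparison. Under the culture block Sdc4, Itgb1, Calr and Vldlr passed as higher, and Itga5 and Lrp8 as lower. Sdc4 and Lrp1 stand in both this list and that of the inhibitors.

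Thbs1 is a known activator of latent TGF-beta. Of 18 genes of that pathway 2 rose and 0 fell (median log2 fold change 0.07), beside 5.71% and 3.31% of all tested genes. Ltbp1, which stores latent TGF-beta in the matrix, was at 38.1, 32.5 and 49.2 in DMSO and 66.5, 91.2 and 106 in cLTP libraries (2.16-fold, limma adjusted p = 0.0148). Smad7, an inhibitor that TGF-beta signalling induces, was at 170.3, 124 and 173 and at 231, 281 and 334 (1.8-fold, adjusted p = 0.0154). For both, each cLTP library lay above each DMSO library. Leaving out DMSO 1, DMSO 2, cLTP 2 or cLTP 3 ended the call of Ltbp1 (limma adjusted p = 0.0519 to 0.0611), and leaving out DMSO 2 or cLTP 2 that of Smad7 (0.0501 and 0.0596). The ligand Tgfb1 was at 80.3 ± 6.84 and 83.0 ± 8.29 (limma adjusted p = 0.909). Under the culture block 2 passed as higher and 2 as lower, the lower pair being Smad6, at 14 reads or fewer in each library, and Smad3.

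Other proteins that carry thrombospondin type 1 repeats were represented by 22 tested genes, of which 1 rose and 0 fell (median log2 fold change 0.01). Over all tested genes the shares were 5.71% and 3.31%. Cyr61, a matrix protein now also called Ccn1, was at 158, 217 and 49.2 in DMSO and 1400.1, 968 and 1002 in cLTP libraries (9.22-fold, limma adjusted p = 0.0142). As with Thbs1, DMSO 3 was the lowest control, and without it the fold was 5.94. With the block Cyr61 did not pass (adjusted p = 0.0943), while Unc5c, Adgrb3, Thsd1 and Sema5a, which encode membrane proteins, several of them guidance receptors or cues, passed as lower. Ctgf, its close relative, was at 56.6 ± 35.0 and 59.3 ± 20.6 (limma adjusted p = 0.868).

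**Figure D4:**
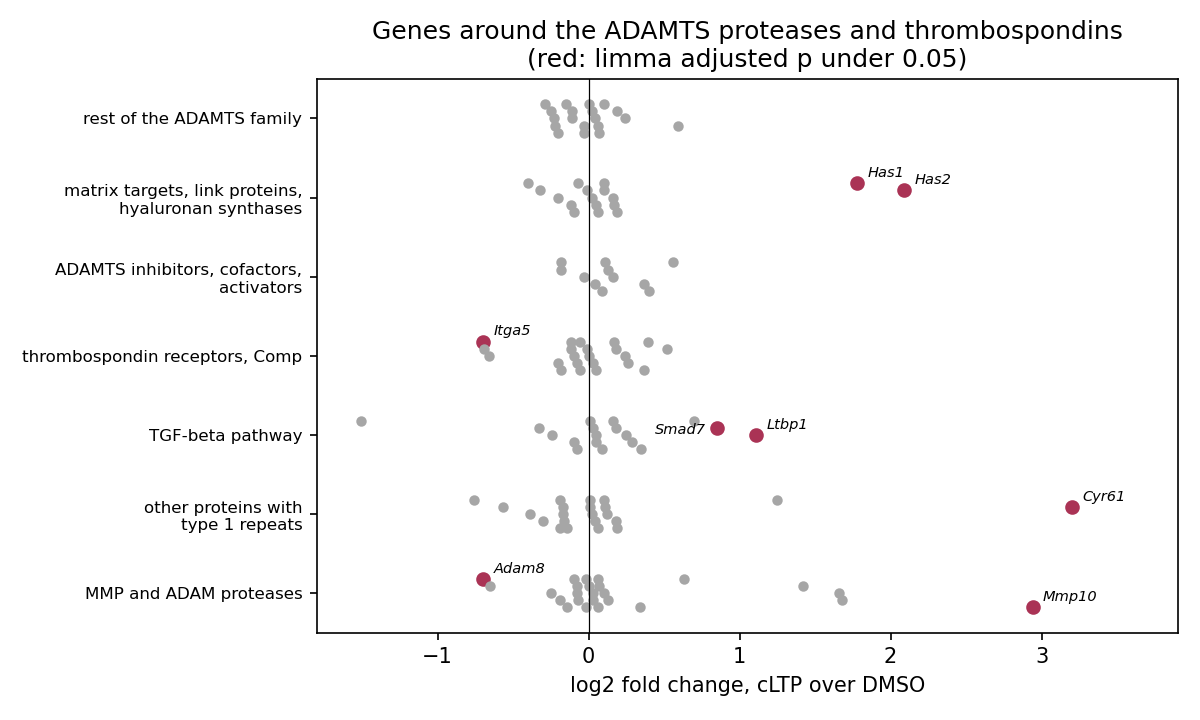
Log2 fold change of cLTP over DMSO for each tested gene of the 7 lists around the ADAMTS proteases and thrombospondins, 1 point per gene; red points passed a limma adjusted p of 0.05. Most points lie near 0, and the named genes are those that passed.

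Genes with the profile most like a member were sought by the distance between log2 profiles over the 6 libraries, each centred on its own mean, among 8201 other genes with a mean of at least 195. Adamts1 was nearest to Coq10b, a coenzyme Q binding protein (384 and 6246 in DMSO and cLTP means, distance 0.285), and to Gem, a small GTPase (133 and 1982, distance 0.383). The same pair, with Gem first (0.636) and Coq10b next (0.972), lay nearest to Thbs1. Adamts9 was nearest to Snx18 (0.502) and Zhx2 (0.503), and Adamts4 to Cdk2ap1 (0.14) and Elovl5 (0.151). Nearest genes of the other 4 members had folds between 0.812 and 1.01. These are descriptions over 6 libraries in 2 groups.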

How the data were processed

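Strand-specific libraries of polyadenylated RNA were made from 3 DMSO and 3 cLTP cultures, which the labels call biological replicates without naming separate litters, so the p-values reflect spread that may be partly technical. A passage of the protocol on sorted brain cells conflicts with the other labels and was left aside. The submitters' processing notes list STAR, bcl2fastq and DESeq2, and the build rn6, without versions; how reads were assigned to genes, with or without strand, is not stated there. The deposited table gives a normalised signal per gene and library, without division by length. Dividing each library's values by the worth of a single read (0.878 to 1.13) gave whole reads, within 0.01, for 100% of entries; 3 reads equal 2.63 to 3.38.

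Limma 3.58.1 (trend, robust; R 4.3.3) was fitted on log2(value + 1) for genes with a mean of at least 1, with Benjamini-Hochberg adjustment over all of them and a threshold of 0.05, two-sided. The design planned limma for normalised values. EdgeR 4.0.16 (quasi-likelihood, TMM) and DESeq2 1.42.0 on recovered reads were alternatives, as were other scalings, pseudocounts, filters, left-out libraries and the culture number as a block. Same-numbered libraries correlated, after removing group means, with 0.22, 0.30 and 0.54, all above 0.1, so the numbers were taken as pairs. DMSO 2 with cLTP 1 (0.16) and DMSO 1 with cLTP 2 (0.19) were only slightly lower, and culture 3 was the clearest pair. The pairing rests on the data and not on the labels. The fit was tested on simulated data. Replicates of a group differed by 3.84 to 18.8 chi-square per degree of freedom, so none repeated another. Members and lists were chosen with earlier results of these data known; of 195 list genes, 186 were in the table, and the other 9 were not analysed here. Named genes were the members, each list's genes past the threshold, the lowest p otherwise, a few best-known partners and the nearest profiles; Adamts3, Comp, Tgfb1, Ctgf, Mmp9 and the genes passing only with the block were added after their values were seen. Sequences are from RefSeq.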

Additional observations from a re-analysis of the deposited data

How the results depend on the processing

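The count of 3 members past the threshold was 3 under every alternative except the culture block, where it was 4. Adamts1, Adamts9 and Thbs1 kept their direction and call in all of them, with log2 fold changes of 3.84 to 4.39, 1.47 to 2.01 and 3.56 to 4.49 when 1 library was left out; those of Thbs2 (-0.38 to 0.08) and Thbs3 (-0.06 to 0.04) changed sign. Over all genes 1561 passed, 4075 with the block and 953 to 1414 with 1 library left out. The split of 988 higher and 573 lower became 823 and 1322 with equal library totals, which shift the median log2 fold change to -0.11 and put Thbs3 at -0.14, and 897 and 799 after quantile normalization. The cause of these shifts was not tested.

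List counts moved as follows. With the block, 4 matrix genes, 4 inhibitors and cofactors, 6 thrombospondin receptors, 4 TGF-beta genes, 4 further genes with type 1 repeats and 8 MMP and ADAM genes passed. The receptor count was 2 with equal totals and 2 after quantile normalization, and 0 to 1 with 1 library left out, where the TGF-beta count was 0 to 2 and those of the repeat genes and of the MMP and ADAM genes 1 to 2. Without culture 3 of both groups, 1 inhibitor, 3 repeat genes and 4 MMP and ADAM genes passed. The MMP and ADAM count was 1 without a filter, 1 with a mean of at least 10, 1 in edgeR and 1 in DESeq2. Adamts4, Adamts5 and Thbs4 had 22 to 66 reads per library, and how far depth limits them was not tested.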

Other observations

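Transcripts of other extracellular metalloproteases were measured beside those of the ADAMTS enzymes. Of 25 tested MMP and ADAM genes 1 rose and 1 fell (median log2 fold change 0.03), beside 5.71% and 3.31% of all tested genes. An unadjusted limma p under 0.05 was seen for 6 of the 25, against 3644 of all 17315 tested genes. With the culture block 4 were higher and 4 lower, beside 12.9% and 10.7% of all tested genes. Mmp10, stromelysin, had 0 reads in the DMSO libraries and was at 7.89, 6.22 and 6.1 in cLTP libraries, at least 2.39-fold higher against a floor of 3 reads per library (limma adjusted p = 0.00355). Its cLTP values rest on 7, 6 and 6 reads. In edgeR and with a mean of at least 10, 0 genes of this list passed as higher. Adam8 fell from 75.8 ± 9.46 to 46.6 ± 8.14 (limma adjusted p = 0.0495), and lost its call without DMSO 1, 2 or 3, cLTP 1 or 3, without culture 3, without a filter and in DESeq2 (adjusted p = 0.054 to 0.185). Mmp9, a protease studied in synaptic plasticity, was at 22.4 ± 10.5 and 23.7 ± 13 (limma adjusted p = 0.962). Mmp12 was at 36.2, 24.6 and 12.8 in DMSO and 90.2, 68.4 and 38.7 in cLTP libraries, higher in each numbered culture (limma adjusted p = 0.0769, or 2.39e-05 with the block). Mmp3, another stromelysin, was at 0.951, 2.63 and 6.89 in DMSO and 13.5, 10.4 and 10.2 in cLTP libraries (3.21-fold, limma adjusted p = 0.0841, or 0.0118 with the block). Mmp13, a collagenase, had 0 to 3 reads in DMSO and 2 to 8 in cLTP libraries (limma adjusted p = 0.172, or 0.0389 with the block).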
